A study of Mus musculus with 16 samples.

Results

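The cytosolic ribosomal protein genes were measured by RNA-seq in kidney and in liver of old mice that had received a vector with a hairpin against *Fos* or with a control hairpin. Members were taken by symbol: Rpl or Rps with a number and, where present, a short suffix (a, l, l1, x or al), together with *Rplp0*, *Rplp1*, *Rplp2* and *Rpsa*. Of 24984 genes in the count tables, 85 symbols matched, *Rpl26* and *Rpl10l* had 0 counts in all 16 libraries and were dropped, and 83 genes remained, 32 of the small and 51 of the large subunit. The series compared 4 groups of 4 libraries each: kidney shNT, kidney shFOS, liver shNT and liver shFOS. The animals were wild-type C57BL/6 mice, and the methods describe them as female. Every group carried an AAV8 vector given into the tail vein, with a hairpin against *Fos* (shFOS) or a non-targeting hairpin (shNT). The methods give injection at 24 months of age and collection 3 months later, whereas the labels give an age of 24 months. The promoter that drives the hairpin is not given in the sources used here, and every library came from an injected mouse. Nothing in the labels ties a kidney library to a liver library of the same animal, and p-values measure only the spread between these libraries.

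Ribosomal proteins and rRNA build the small and the large subunit of the ribosome. The small subunit reads the mRNA while the large subunit joins amino acids. *Rplp0*, *Rplp1* and *Rplp2* encode the acidic stalk of the large subunit, where elongation factors dock, and *Rpsa* encodes a small-subunit protein near the mRNA exit. A classical feature of these genes in mammals is the 5′-terminal oligopyrimidine (TOP) tract, a run of C and T at the start of the mRNA through which mTOR, acting partly through LARP1, controls their translation. Hepatocytes in particular are rich in ribosomes and secrete most plasma proteins. Paralogs, here the 8 members whose symbols end in l, l1 or al, are named after a core gene, and some are restricted to few tissues: *Rpl3l*, for instance, is known from skeletal muscle and heart.

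Start sites are shown first because the TOP tract is the sequence feature the family is best known for. RefSeq gave a start for 62 of the 83 members (assembly GRCm38.p6), and in 31 of them (50%) an uninterrupted run of at least 8 C or T lay within 20 bases of the start on the gene's own strand. Of all 27025 genes with a RefSeq start 18.4% held such a run, and of 69 mitochondrial ribosomal protein genes 18.8%. The windows below hold 15 bases before and 15 bases from the start, 5′ to 3′ on the gene's strand, with the run in capitals. They were chosen to show a long run (*Rpl27a*, cut short by the window), runs in *Rpl14* and *Rps6*, paralogs with a run (*Rpl22l1*, *Rps27l*) and without a run (*Rpl7l1*, *Rpl3l*), and the stalk gene *Rplp0*, where the longest run was 7 bases.
Rpl27a, chr7:109519180-109519209, + strand: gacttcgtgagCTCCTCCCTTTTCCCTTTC
Rpl14, chr9:120571502-120571531, + strand: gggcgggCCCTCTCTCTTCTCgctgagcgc
Rps6, chr4:86857353-86857382, - strand: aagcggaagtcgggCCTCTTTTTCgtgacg
Rpl22l1, chr3:28805493-28805522, + strand: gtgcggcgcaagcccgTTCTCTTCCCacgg
Rps27l, chr9:66946071-66946100, + strand: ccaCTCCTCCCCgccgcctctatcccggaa
Rplp0, chr5:115559452-115559481, + strand: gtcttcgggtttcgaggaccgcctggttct
Rpl7l1, chr17:46782642-46782671, - strand: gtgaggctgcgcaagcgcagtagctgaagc
Rpl3l, chr17:24727811-24727840, + strand: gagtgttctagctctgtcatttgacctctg
A run is a description of the letters in these windows, and annotated starts can be off by several bases. The run of *Rps27l* and some others end before the annotated start, so a run need not be a tract of the mRNA.

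The members were short, with a median transcript of 886 bases against 2933 bases over the genes tested in kidney, and a median GC content of 51.6% against 50.4%. They lay on 19 chromosomes, and 29 members held 56 snoRNA genes inside their borders. A further shared feature bears on counting, because many members have processed pseudogenes. The share of a transcript's 31-base words that recurred in transcripts of other genes had a median of 53.3% over the members, and 47 of 83 were above 50%. *Rpl26* shared 65.6% of its words, *Rpl30* 86.3%, *Rpl34* 48% and *Rps27* 98.7%, the last with *Rps27rt*. These core genes were at or near 0, with 0 to 4 counts for *Rpl30*, 3 to 16 for *Rpl34* and 2 to 12 for *Rps27* in any library. The other core members shared a median of 54.9% of their words. These shares differ in kind, since some come from overlapping genes, as 61.9% of the words of *Rpl35* recurred in *Wdr38*. The summary row for reads without a unique alignment held 0 in all 16 libraries, so the count tables do not show how many such reads there were. The part of multiply mapping reads in the low counts was not tested.

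Kidney libraries held between 14194543 and 15534665 counted reads, and liver libraries between 16652150 and 18300277. The targeted gene, *Fos*, was at 6.71, 5.26, 4.23 and 5.29 CPM (counts scaled for library size by TMM within the tissue) in kidney shNT and at 2.57, 4.12, 3.93 and 2.30 in kidney shFOS. In liver it was at 1.12, 2.37, 3.70 and 2.86 in shNT and at 1.63, 1.5, 2.76 and 1.38 in shFOS. The kidney groups did not overlap and the liver groups did, and the log2 fold change of -0.73 ± 0.25 (SE) in kidney and -0.47 ± 0.38 in liver did not pass the test (edgeR quasi-likelihood with Benjamini-Hochberg adjustment over all genes, adjusted p = 0.0955 and 0.778). None of the 7 kidney and 7 liver markers was at 0 throughout, and in liver libraries the kidney markers summed to at most 5.27 CPM. Of 5 erythroid markers *Hba-a1*, *Hba-a2*, *Hbb-bs* and *Hbb-bt* were at 0 in every library. The library labelled shNT replicate 4 stood apart from the other 3 of its group in both tissues, and the main results are given with and without it.

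Per transcript length the members were among the abundant mRNAs. Levels were set as counts per base of transcript with all genes scaled to the same total per library (TPM-like), a scale on which the 72 core members tested in kidney had a median of 856 in shNT and the 73 core members tested in liver 461, against 16.8 and 8.97 over all genes tested. Core members ran from 469 to 1507 in kidney and from 196 to 806 in liver between the 10th and the 90th percentile. In kidney shNT the highest were *Rpl41* (2754 ± 562, SD, n = 4), *Rps15* (2742 ± 599) and *Rplp1* (2441 ± 473), and these neighbours did not differ beyond their spread. In liver shNT the order was *Rplp1* (1398 ± 332), *Rpl10* (1382 ± 202) and *Rpl41* (1324 ± 363), again within the spread. *Rpl41* encodes the smallest ribosomal protein and *Rpl10* a protein needed late in assembly of the large subunit.
The low end was held by paralogs and by a few core genes. *Rps15a* stood at 67.3 ± 14.4 in kidney shNT and 34.6 ± 12.8 in liver shNT, and *Rps20* at 97.5 ± 19.3 and 58.2 ± 17.2, well under the other core members that passed the filter, *Rpl34* in liver excepted (1.79 ± 0.83). Their annotated transcripts, of 5179 and 3706 bases, are far longer than the members' median. In CPM, which takes no account of length, they stood at 165 ± 35.3 and 171 ± 34.8 in kidney shNT. That was still among the lower core members but close to others, as *Rpl36* had a mean of 158 and *Rps13* of 173. The part of the annotated lengths in their low place was not tested. Among paralogs *Rps27l*, a p53-responsive relative of *Rps27*, was highest with 378 ± 32.6 in kidney and 339 ± 46.6 in liver. *Rpl36al* followed at 189 ± 32.1 and 187 ± 12.2, and *Rpl22l1* (64.2 ± 12.8 and 54.0 ± 37.0) and *Rpl7l1* (59.2 ± 6.60 and 42.7 ± 3.71) came next. *Rps4l* (31.3 ± 5.91 and 9.62 ± 4.07), which GENCODE M21 lists as a transcribed processed pseudogene overlapping *Tmtc1*, *Rpl32l* (5.20 ± 1.06 in kidney), a processed pseudogene overlapping *Map7*, and *Rpl3l* (3.91 ± 3.37 in kidney) were lowest, and *Rpl39l* had at most 3 counts in any library.

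**Figure D1:**
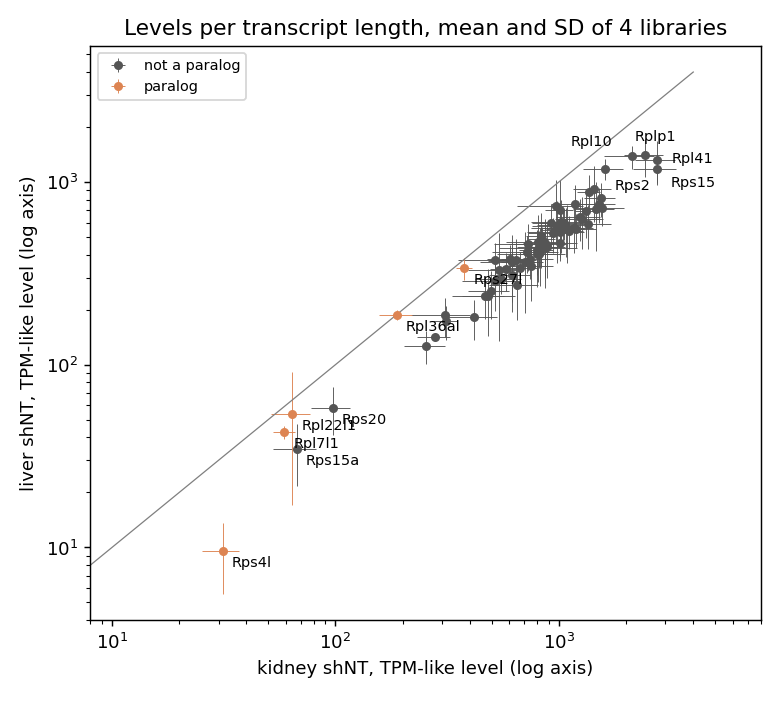
Level per transcript length (TPM-like, log axes) of the members tested in both tissues, kidney shNT on the x axis and liver shNT on the y axis, as mean and SD of 4 libraries each, with paralogs in orange and equality as a line. Core members sit below the line, around a median of 856 in kidney and 461 in liver, while *Rpl36al* lies on it (189 against 187).

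The members moved together from library to library, and one library dominated that movement. The 83 genes took 2.63%, 2.69%, 2.71% and 3.99% of counted reads in kidney shNT replicates 1 to 4, and 2.38%, 2.34%, 2.79% and 2.2% in kidney shFOS. In liver they took 1.56%, 1.54%, 1.58% and 2.61% in shNT and 1.62%, 1.56%, 1.66% and 1.46% in shFOS. Thus replicates 1 to 3 of shNT lay within a narrow band in each tissue and replicate 4 lay far above it, and without that library the shFOS range contained the whole shNT band in both tissues. The mean share in shFOS was 0.807 of that in shNT in kidney and 0.865 in liver, and without shNT replicate 4 it was 0.906 and 1.01.

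**Figure D2:**
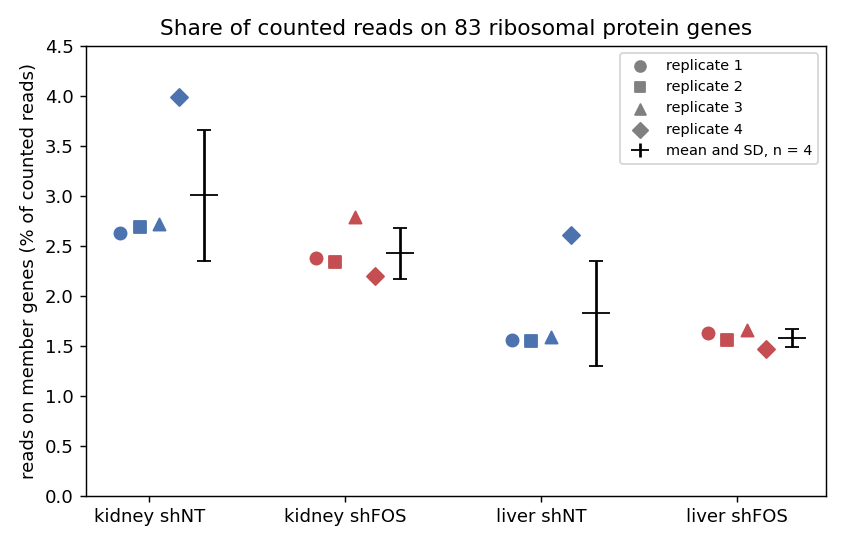
Percent of counted reads on the 83 ribosomal protein genes in each of the 16 libraries, with symbols for the replicate number and black bars for mean and SD (n = 4). The shNT replicate 4 library sits at 3.99% in kidney and 2.61% in liver, above all others of its tissue.

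In shNT replicate 4 nearly the whole family was high. Of 79 members tested in kidney 74 had their highest value of 8 libraries there, as had 24.1% of all genes tested and 28.7% of genes of like length and GC content. In liver it was 72 of 78 members, against 26.5% of all genes and 22.9% of like genes. Like genes are those whose transcript length (403 to 2050 bases) and GC content (43.4% to 58.3%) fall within the 5th to 95th percentile of the members. The CPM ratio of this library to the mean of the other 3 shNT libraries had a median of 1.48 over the members in kidney and 1.54 in liver, with quartiles of 1.43 and 1.59 in kidney and of 1.42 and 1.77 in liver. On the log2 scale the median deviation from the tissue mean was 0.53 in kidney and 0.56 in liver, while like genes stood at 0.03 and -0.03 and mitochondrial ribosomal protein genes at -0.04 and -0.11.
Small and large subunit were high alike, with median deviations of 0.52 and 0.54 in kidney and 0.59 and 0.53 in liver. *Rplp0* was at 835, 840, 846 and 1249 CPM in kidney shNT and at 444, 419, 391 and 829 in liver shNT. *Rpsa* was at 852, 867, 863 and 1136 CPM in kidney and at 647, 565, 516 and 1223 in liver. For both genes replicate 4 exceeded all of the other 7 libraries of its tissue.

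A few members did not follow. *Rpl7l1*, a relative of *Rpl7*, was at 81.4, 70.3, 75.1 and 64.8 CPM in kidney shNT, so that replicate 4 was the lowest, and at 72.5, 53.7, 55.3 and 59.8 in liver. *Rps27l* in liver shNT was at 119, 89.1, 84.5 and 74.6 CPM and *Rps4l* at 4.75, 4.5, 6.87 and 3.07, again lowest in replicate 4. At the other extreme, *Rpl3l* in kidney went from 1.12, 1.75 and 1.5 CPM to 5.87, a ratio of 4.03, and in liver *Rpl22l1* (ratio 2.95), *Rpl12* (2.62), *Rpl3* (2.18) and *Rpsa* (2.12) had the highest ratios. Among core genes, *Rpl22* (1.02), *Rpl34* (1.11) and *Rpl35a* (1.19) had the lowest ratios in liver.
Other features of that library moved with the family. The summed CPM of 7 kidney markers was 11590 in kidney shNT replicate 4 against 20250 to 22230 in replicates 1 to 3, and that of 7 liver markers was 70030 in the liver library against 130600 to 173000. In kidney the 7 macrophage markers summed to 382 (734 to 1077 in the others), the 6 B and plasma cell markers to 19.7 (118 to 305) and 6 T cell markers to 5.33 (28.5 to 56.2), and endothelial (274 against 337 to 354) and fibroblast markers (383 against 552 to 638) were also lowest there. In the liver library the B and plasma cell markers were lowest (3.66 against 13.1 to 71.4), macrophage (737 against 251 to 1484) and T cell markers (4.65 against 4.39 to 22.4) lay inside the range of the others, and fibroblast markers were highest (317 against 170 to 301). The liver markers summed to 1069 in that kidney library and to 191 to 444 in the other kidney shNT libraries. Median deviations of TOP-controlled translation factor genes were 0.28 in kidney and 0.22 in liver, and of rRNA-processing and biogenesis genes 0.15 and 0.35. The part of these in the members' levels was not tested, and in bulk tissue fewer cells of a type and less RNA per cell cannot be told apart.

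**Figure D3:**
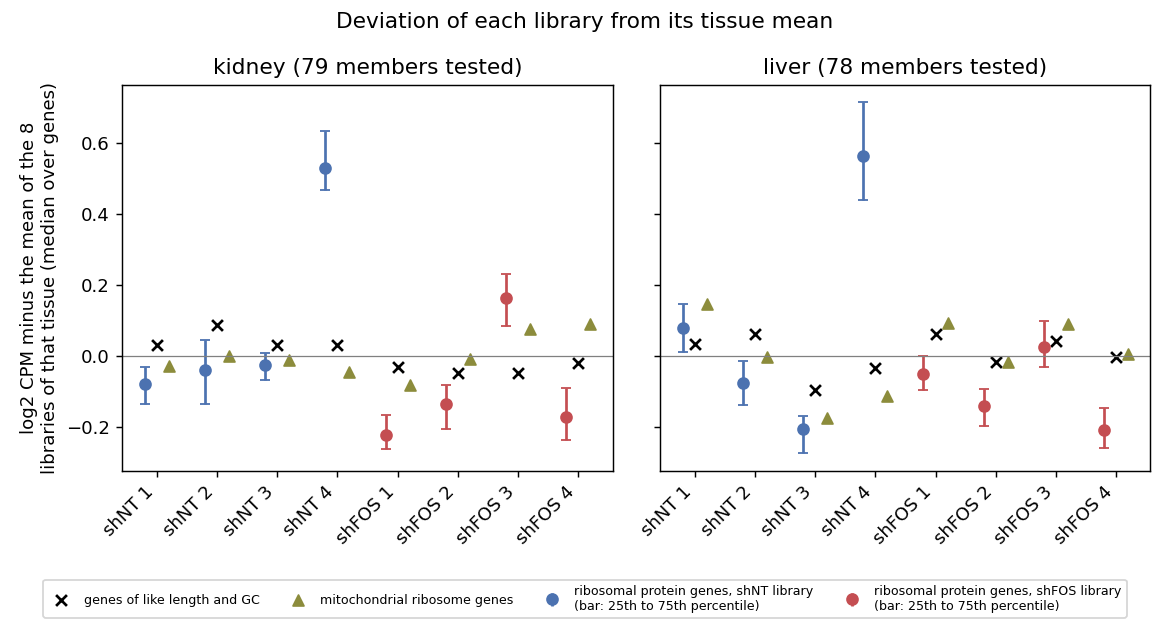
Median log2 CPM of each library minus the mean of the 8 libraries of its tissue, for ribosomal protein genes (circles, bars from the 25th to the 75th percentile of members), genes of like length and GC content (crosses) and mitochondrial ribosomal protein genes (triangles). Members reach 0.53 and 0.56 in shNT replicate 4, where like genes stay at 0.03 and -0.03.

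Whether the hairpin against *Fos* changed the family was asked first in kidney. No member passed an adjusted p of 0.05, and neither did any of the 14892 genes tested (0%), although 2549 genes were higher and 2198 lower at an unadjusted p under 0.05. On average the members were lower in shFOS: 71 of 79 had a negative log2 fold change and the median was -0.20, against 0.00 over all genes, -0.10 over genes of like length and GC content and 0.04 over those also of like level. At an unadjusted p under 0.05, 11 members were lower and 1 was higher, where 14.8% and 17.1% of all genes were, so the count lower was no larger than the background. Without shNT replicate 4 the members' median was -0.03, above that of like genes (-0.09), and 8 members were lower and 2 higher (14.3% and 16.5% of all genes), with 0 past an adjusted p of 0.05 (0.0133% lower and 0.00665% higher of all genes).
The 11 members comprised 7 of 48 tested in the large and 4 of 31 in the small subunit. *Rpl21*, of the large subunit, was at 319, 362, 283 and 509 CPM in shNT and at 268, 202, 272 and 235 in shFOS. The groups did not overlap, and the log2 fold change was -0.59 ± 0.19 (unadjusted p = 0.0109, adjusted p = 0.0796), or -0.39 ± 0.13 without shNT replicate 4. *Rpl28* was at 373, 424, 357 and 531 CPM in shNT and at 331, 312, 323 and 272 in shFOS, with a log2 fold change of -0.44 ± 0.14 (adjusted p = 0.0800), or -0.31 ± 0.11 without shNT replicate 4. Reads from places where its exons coincide with those of the overlapping gene *Ube2s* would be among the ambiguous reads, which were counted for neither gene.
Every shFOS library was below every shNT library for 6 of 79 members, among them *Rpl14*, *Rpl21*, *Rpl28*, *Rplp2* and *Rps15*, where 8.04% of all genes behaved so. The opposite pattern, which 9.16% of all genes showed, was found in 0 members. DESeq2 called 8 members lower and 0 higher at an adjusted p under 0.05 (7.92% and 10.4% of all genes), among them *Rpl14*, *Rpl21*, *Rpl28*, *Rpl29*, *Rplp2* and *Rps15*. Without shNT replicate 4 it called 6 lower and *Rps27a* higher (5.98% and 9.3%). By edgeR, leaving out shFOS replicate 1 gave 3 calls, with *Rpl21* (-0.68, adjusted p = 0.0437) and *Rpl28* (-0.52, adjusted p = 0.0411) lower and *Rpl7l1* (0.29, adjusted p = 0.0404) higher, where 15% and 12.5% of all genes were called.

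Among the stalk genes *Rplp2* was at 200, 213, 195 and 300 CPM in kidney shNT and at 180, 170, 174 and 149 in shFOS, with a log2 fold change of -0.43 ± 0.15 (adjusted p = 0.0896) and of -0.27 ± 0.09 without shNT replicate 4. *Rplp0*, at 774, 834, 1037 and 853 CPM in shFOS, gave -0.11 ± 0.17, and *Rplp1*, at 463, 459, 592 and 468 CPM, gave -0.22 ± 0.16. *Rpsa* gave -0.27 ± 0.14. *Rplp1* was at -0.07 ± 0.11 and *Rpsa* at -0.15 ± 0.12 without shNT replicate 4. For *Rplp0* the direction depended on the setting, since it was 0.06 without shNT replicate 4 and 0.02 with an offset for GC content and length. None of the 3 stalk genes passed the edgeR test.
Of 8 members above 0, 3 were paralogs. *Rpl7l1* was at 77.9, 86.6, 96.6 and 92.8 CPM in kidney shFOS, with the shNT values given above, and the lowest shFOS library overlapped the shNT range. Its log2 fold change was 0.28 ± 0.10 (unadjusted p = 0.0197, adjusted p = 0.0991), and 0.23 ± 0.10 without shNT replicate 4. *Rps27l* gave 0.17 ± 0.13, or 0.22 ± 0.13 without that library, and *Rps27a*, which encodes a ubiquitin fusion protein and overlaps *Clhc1*, 0.20 ± 0.20, or 0.44 ± 0.12 without shNT replicate 4 (adjusted p = 0.0887). *Rpl3l* had -1.66 ± 0.58 from 7 to 91 counts a library, with 0.90, 0.47, 0.64 and 1.23 CPM in shFOS, and -0.85 ± 0.37 without shNT replicate 4. *Rpl36al* (-0.26 ± 0.14), *Rpl32l* (-0.36 ± 0.32), *Rpl22l1* (0.09 ± 0.16) and *Rps4l* (-0.01 ± 0.18) did not pass at an unadjusted p of 0.05 either, and without shNT replicate 4 they were at -0.12, -0.20, 0.18 and 0.09.
Transcript length moved with the kidney contrast over all genes. Genes that are no members had a median log2 fold change of -0.22 at 600 bases or less and of 0.12 over 4000 bases, and members of 600 bases or less had -0.22 as well. At over 600 to 1000 bases members had -0.18 and other genes -0.17. Members of over 1000 to 1500 bases had -0.27 where other genes had -0.12, and the 3 of over 2500 to 4000 bases had -0.24 against 0.03. In liver, members of 600 bases or less had -0.18 and other genes 0.09. In kidney without shNT replicate 4, genes that are no members stayed at -0.18 at 600 bases or less and at 0.12 over 4000 bases, whereas members of 600 bases or less were at -0.02. With an offset for length the members' median in kidney was -0.05 in place of -0.20. The part of length in the members' difference was not tested beyond this.

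In liver 76 of 78 members had a negative log2 fold change, and the median was -0.21 against -0.01 over all genes and 0.01 over genes of like length and GC content. No member and none of the 13144 genes tested (0%) passed an adjusted p of 0.05, with 470 genes higher and 416 lower at an unadjusted p under 0.05, and DESeq2 called 18 higher and 20 lower, with 0 members among them. Without shNT replicate 4 the members' median was -0.04 and that of like genes -0.01, 56 members were lower and 22 higher, and 0 reached an unadjusted p of 0.05 in either direction (3.56% of all genes higher, 2.88% lower). No member had groups that did not overlap (2.79% of all genes had every shFOS library above, and 1.52% below).
At an unadjusted p under 0.05 there was 1 member higher and 0 lower, against 3.58% and 3.16% of all genes. It was *Rps4l*, at 4.75, 4.5, 6.87 and 3.07 CPM in shNT and at 8.14, 7.50, 4.99 and 10.8 in shFOS, with a log2 fold change of 0.71 ± 0.29 (unadjusted p = 0.0365, adjusted p = 0.731). Without shNT replicate 4 it was 0.53 ± 0.27. Its groups overlapped in 1 shFOS library.
*Rpl17* and *Rpl27a*, both of the large subunit, had the smallest p of the lower members. *Rpl27a*, which holds *Snora3*, was at 374, 347, 264 and 516 CPM in shNT and at 293, 288, 309 and 273 in shFOS, a log2 fold change of -0.37 ± 0.20 (adjusted p = 0.737), and *Rpl17* gave -0.33 ± 0.17. Both were at -0.19 without shNT replicate 4, with an SE of 0.13 for *Rpl27a* and 0.12 for *Rpl17*. *Rplp0* was at 405, 410, 400 and 372 CPM in shFOS (-0.39 ± 0.24), *Rplp1* gave -0.21 ± 0.18 and *Rplp2* -0.27 ± 0.19. *Rpsa* gave -0.27 ± 0.27, and 0.07 ± 0.12 without shNT replicate 4. Without that library the stalk genes were at -0.09 ± 0.10 (*Rplp0*), -0.06 ± 0.12 (*Rplp1*) and -0.07 ± 0.12 (*Rplp2*).

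**Figure D4:**
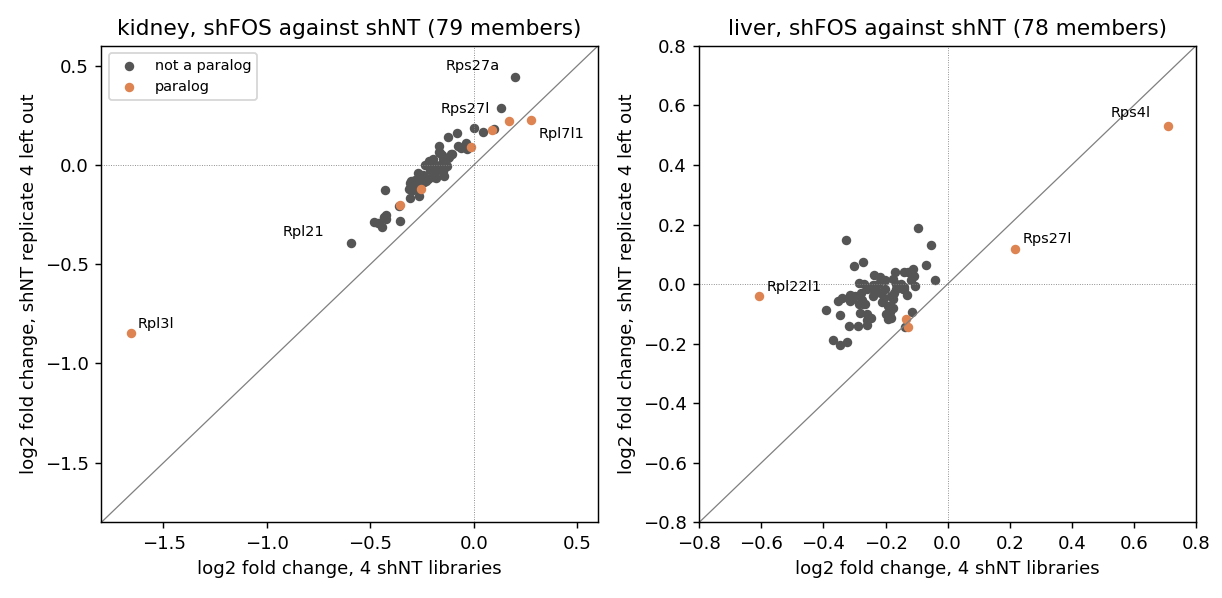
Log2 fold change of each member in shFOS against shNT, with all 4 shNT libraries on the x axis and with shNT replicate 4 left out on the y axis, for 79 members in kidney and 78 in liver, with paralogs in orange and equality as a line. Nearly all members lie above the line, and their medians move from -0.20 to -0.03 in kidney and from -0.21 to -0.04 in liver.

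The change in liver was compared with that in kidney in one fit of the 16 libraries. No member and no gene of 15421 (0%) had an adjusted p under 0.05, with 1209 genes above and 1273 below 0 at an unadjusted p under 0.05. DESeq2 called 104 genes above and 237 below 0 (0.674% and 1.54%), with 0 members among them. Over 80 members the median difference, liver minus kidney, was 0.02, with 41 above and 39 below 0. It was -0.21 without kidney shNT replicate 4, 0.21 without liver shNT replicate 4 and between these values under every other single omission. At an unadjusted p under 0.05 there was 1 member below 0 and 0 above, against 8.25% and 7.84% of all genes. It was *Rpl7l1*, with a difference of -0.39 ± 0.14 (unadjusted p = 0.0142, adjusted p = 0.215), from 0.28 in kidney and -0.13 in liver. In liver it was at 53.8, 55.8, 55.2 and 55.8 CPM in shFOS, inside the shNT range. Without kidney shFOS replicate 1 its difference was -0.48 ± 0.14 and passed (adjusted p = 0.0474). The share of all genes called in that fit was not counted. In the kidney contrast the same omission led to calls of 12.5% of all genes higher and 15% lower, so this call is no result particular to *Rpl7l1*. *Rps4l* (0.75 ± 0.36), *Rpl21* (0.45 ± 0.28), *Rpl29* (0.34 ± 0.24), *Rps27a* (-0.52 ± 0.33) and *Rpl22l1* (-0.68 ± 0.45) came next by p and did not reach 0.05.

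How the family differs between the tissues depended on the scale. On the TMM scale over both tissues 73 of 80 members were higher in liver shNT than in kidney shNT, with a median log2 difference of 0.27 against -0.05 over all genes, while their share of counted reads and their TPM-like levels were lower in liver. The share in liver shNT was 0.607 of that in kidney shNT. It was 0.996 when the 100 most abundant genes of each tissue were left out of both counts. These genes took 20.5% to 23.2% of kidney and 41.6% to 47.7% of liver reads, and they included members in kidney but none in liver. The 0.996 thus sets part of the family in kidney against all of it in liver. On the TMM scale 18 members were called higher and 1 lower at an adjusted p under 0.05, where 30.2% and 34.4% of all genes were, so a smaller share of members than of all genes was called. At an unadjusted p under 0.05 the members were 23 higher and 2 lower (31.7% and 36% of all genes), and DESeq2 called 24 higher and 1 lower (31.3% and 34.9%). With upper-quartile scaling the median of all genes was -0.21 and that of members 0.12, and 9 members were called higher and 2 lower (24.5% and 40.2% of all genes). Leaving out kidney shNT replicate 4 gave 43 members higher and 1 lower (29.9% and 34.1% of all genes), and leaving out liver shNT replicate 4 gave 9 higher and 1 lower (29.8% and 35.5%). With the replicate number as a block, 40 of 81 members were higher and 1 lower at an adjusted p under 0.05, where 29.9% and 35.6% of all genes were, and the median was 0.25. The check of pairing allowed this block for the shNT groups, although the shift of shNT replicate 4 in both tissues can sway that check. The fit also paired the shFOS libraries by number. Whether the members were called more or less often than all genes thus depended on the block and on the shNT replicate 4 libraries.
The smallest p in either direction belonged to paralogs. *Rpl36al* was at 72.3, 73.8, 73.3 and 105 CPM (TMM over both tissues) in kidney shNT and at 207, 171, 157 and 193 in liver shNT, a log2 difference of 1.17 ± 0.14 (adjusted p = 1.84e-06). *Rps27l* was at 60.4, 57.0, 64.3 and 71.7 CPM in kidney shNT and at 167, 126, 119 and 106 in liver shNT (1.03 ± 0.14, adjusted p = 1.02e-05). *Rpl7l1* gave 0.72 ± 0.10 (adjusted p = 1.12e-05). All liver values of these genes were above all kidney values. They were picked by their p, and such a count was not made for other genes, so the separation is no trait particular to them. *Rpl3l* was the only member called lower, at 0.79, 1.22, 1.06 and 4.25 CPM in kidney shNT and at 0.28, 0.33, 0.07 and 0.30 in liver shNT (-2.89 ± 0.63, adjusted p = 0.000762), from 1 to 4 counts per liver shNT library. *Rps4l* gave -0.55 ± 0.26 (adjusted p = 0.0693) and *Rpl32l* -0.24 ± 0.40.
Of the core genes, *Rps2*, which overlaps *Snhg9*, was at 516, 531, 535 and 798 CPM in kidney shNT and at 1107, 880, 806 and 1158 in liver shNT (0.73 ± 0.18, adjusted p = 0.00182). *Rpsa* gave 0.66 ± 0.23 (adjusted p = 0.0218), whereas *Rplp0* (0.13 ± 0.23), *Rplp1* (0.37 ± 0.18) and *Rplp2* (0.20 ± 0.18) did not pass. With the replicate block *Rplp1* passed (0.37 ± 0.12, adjusted p = 0.0228).

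The scale and a common shift drop out when each member is set against the median member of its own library. On this relative log2 scale most members differed little: 73 of 80 members differed by less than 0.5 between the shNT groups of the tissues, and the SD between libraries of a group had a median of 0.09. In 6 members every liver library was above every kidney library and in 2 the order was reversed. These counts were not made for other genes, so they describe the members alone. *Rpl36al* was highest relative to kidney, with -0.43, -0.61, -0.56 and -1.08 in liver shNT and -1.57, -1.55, -1.55 and -1.73 in kidney shNT, a difference of 0.93. The others were *Rps18* (0.53), *Rps2* (0.50), *Rpsa* (0.33), *Rps26* (0.28) and *Rps6* (0.25), the last encoding the S6 kinase substrate. On the other side were *Rpl3l* (-2.44), of few counts, and *Rps19* (-0.34), the gene mutated most often in Diamond-Blackfan anaemia. *Rps27l* differed by 0.77, but its liver shNT replicate 4 value of -1.95 fell inside the kidney range, and *Rpl34* by 0.76 from at most 16 counts a library. *Rps4l* (-0.82), *Rpl32l* (-0.54), *Rps27a* (0.48), *Rpl10* (0.33) and *Rps15* (-0.27) were among the members that overlapped between the tissues.
Of the relative levels under shFOS, 9 members in kidney and 5 in liver differed from shNT by more than 0.25 either way, a count likewise not made for other genes.

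**Figure D5:**
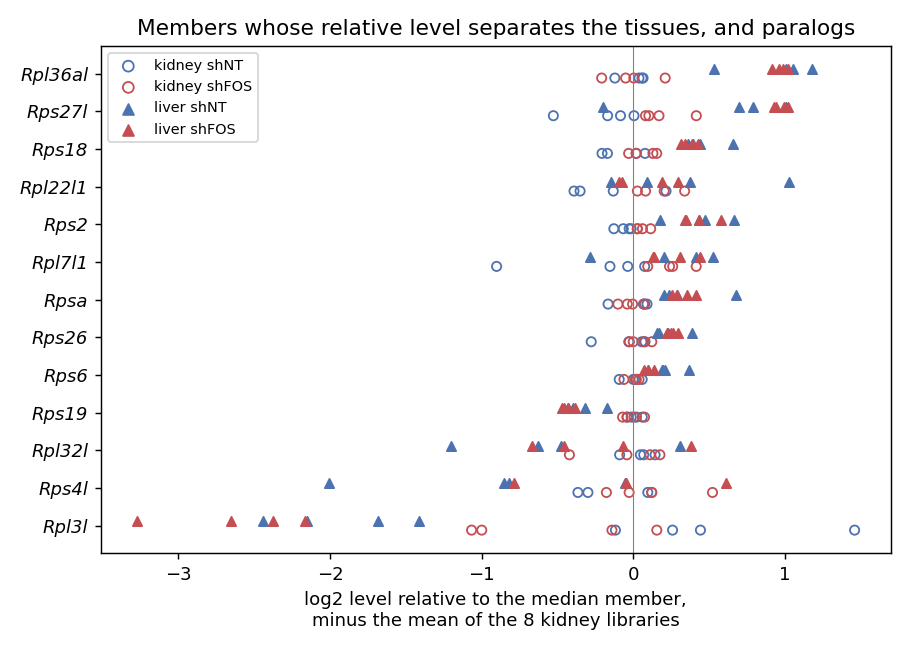
Log2 level relative to the median member of the same library, minus the mean of the 8 kidney libraries, for the 8 members whose libraries separate the tissues and for the paralogs tested in both, with kidney as open circles, liver as filled triangles, shNT in blue and shFOS in red. *Rpl36al* is higher in liver by 0.93 and *Rpl3l* lower by 2.44, whereas the liver shNT replicate 4 value of *Rps27l* falls into the kidney range.

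Members with and without the pyrimidine run or the other shared features had similar medians. The ratio of shNT replicate 4 to the other shNT libraries had a median of 1.44 in 29 kidney members with a run and 1.52 in 30 without one, and of 1.59 and 1.49 in liver. The median log2 fold change in kidney shFOS was -0.16 with a run and -0.22 without, and in liver -0.22 and -0.19. Members with a snoRNA inside had -0.22 in kidney and -0.26 in liver, and those without one -0.20 and -0.19. Members with more than 50% of their 31-base words in other genes had -0.20 and -0.23, and the others -0.22 and -0.17. When shNT replicate 4 was left out, the medians lay between -0.05 and -0.01 in every one of these groups in kidney and between -0.04 and -0.03 in liver.

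Among ribosomal protein genes outside the symbol rule *Rps3a1* gave -0.23 ± 0.17 and *Rack1* -0.30 ± 0.24 in liver, and -0.10 and -0.00 without shNT replicate 4. *Fau*, which encodes a ubiquitin-like fusion with Rps30, was at 386, 460, 341 and 610 CPM in kidney shNT and at 332, 325, 364 and 268 in shFOS (-0.48 ± 0.18, adjusted p = 0.115), and gave -0.29 without shNT replicate 4. Of 78 mitochondrial ribosomal protein genes, which serve another ribosome, 10 were higher and 7 lower in kidney at an unadjusted p under 0.05 and 4 higher and 0 lower in liver, with medians of 0.04 and 0.08. For these and the lists that follow, 17.1% of all genes tested in kidney were higher and 14.8% lower at that p, and 3.58% and 3.16% in liver. Leaving out shNT replicate 4 gave 7 mitochondrial ribosomal protein genes higher and 5 lower in kidney, and 2 and 0 in liver. *Mrpl52* gave -0.39 ± 0.09 and *Mrps31* 0.46 ± 0.12 in kidney, and *Mrps22* 0.37 ± 0.11 in liver. Of 7 listed pseudogenes of members 2 were tested, with 1 lower in kidney (*Rps19-ps3*, -1.10 ± 0.35, adjusted p = 0.0802) and 0 in liver, and the counts without shNT replicate 4 were equal to these.
Among 19 TOP-controlled translation genes 3 were lower and 0 higher in kidney and 0 in either direction in liver, and without shNT replicate 4 it was 3 lower and 1 higher in kidney and 0 in liver. *Gas5*, a snoRNA host and TOP transcript, had -0.89 ± 0.22 (adjusted p = 0.0660) and *Eef1d*, a subunit of the elongation factor exchange complex, -0.34 ± 0.08 (adjusted p = 0.0660), and both kept a negative value without shNT replicate 4 (-0.68 and -0.30). Of 52 genes for rRNA synthesis and processing 5 were higher and 6 lower in kidney and 0 and 2 in liver, which became 4 and 5, and 0 and 1, without that library. *Nop56*, a core protein of box C/D snoRNPs, gave -0.67 ± 0.14 in kidney (adjusted p = 0.0660), and *Ubtf*, a factor for RNA polymerase I, -0.35 ± 0.11. In liver *Polr1c*, a subunit of RNA polymerases I and III, gave -0.32 ± 0.10.
Of 21 genes of the mTOR pathway 6 were higher and 2 lower in kidney and 0 and 3 in liver, or 5 and 1, and 0 and 1, without shNT replicate 4. *Eif4ebp2*, a translational repressor that mTOR inactivates, was 49.3 ± 5.71 CPM in kidney shNT and 79.9 ± 18.5 in shFOS (0.70 ± 0.17, adjusted p = 0.0660) but 78.1 ± 3.66 and 63.6 ± 9.50 in liver (-0.30 ± 0.12, adjusted p = 0.731). *Eif4g1*, the scaffold of the cap-binding complex, gave 0.57 ± 0.11 in kidney. Of 8 factors that bind promoters of ribosomal protein or growth genes 2 were higher and 1 lower in kidney and 0 and 2 in liver, or 3 and 0, and 0 and 0, without it. *Myc* gave -0.79 ± 0.34 in liver and -0.41 without shNT replicate 4, and *Mxd4*, which opposes it, 0.64 ± 0.12 in kidney. Of 8 p53 targets 1 was higher in kidney, *Ccng1* (0.58 ± 0.17, adjusted p = 0.0743), and 0 in liver, whereas without shNT replicate 4 it was 2 higher and 1 lower in kidney and 1 higher in liver. None of the genes in these lists passed an adjusted p of 0.05 in either tissue.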

How the data were processed

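RNA-seq of kidney and liver was analysed from 16 count tables, 1 per library, in 4 groups of 4 taken from the labels. According to the study's methods, total RNA was extracted with TRIzol and sequenced as paired reads. The tables deposited by the authors hold raw counts per gene, made by trimming (Trimmomatic 0.39), alignment to mm10 (HISAT2 2.2.1) and counting without strand (HTSeq 0.12.4). Summary rows were left out of library sizes: 13.4% to 26.7% of reads had no feature and 1.84% to 2.64% were ambiguous. The floor of 3 counts is worth 0.164 to 0.211 CPM, and such limits cover counting error only. No pair of libraries in a group agreed within sampling noise (chi-square per degree of freedom of at least 7.50).

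Counts were tested with edgeR 4.0.16 in R 4.3.3 (TMM, filterByExpr, robust quasi-likelihood F test, Benjamini-Hochberg over all genes), within each tissue for shFOS against shNT, and in a single fit of the 16 libraries for the difference between tissues. The SE is the log2 fold change divided by the square root of F. Deviations from the group means of same-numbered kidney and liver shNT libraries correlated at 0.17, 0.31, 0.34 and 0.32 over genes, so the number was taken to pair these groups, from the data and not the labels. These means include shNT replicate 4, whose shift in both tissues can raise the correlations of replicates 1 to 3. The pairing is therefore not established. DESeq2 1.42.0, scalings, filters, offsets, omitted libraries and a replicate block were alternatives. Scripts were tested on simulated data. Lengths and GC content came from GENCODE M21, with 98.2% of symbols matched, and start sites from RefSeq. Named were the stalk genes and *Rpsa*, all paralogs, the 3 members with the smallest p per direction and comparison, the 3 highest and lowest per length, the 3 most different between tissues per direction, and the 2 genes with the smallest p per list and tissue. Other names follow counts of few genes and were chosen after their values were seen. The members and lists were chosen with earlier results of these data known. Some genes that these rules name are not reported here.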

Additional observations from a re-analysis of the deposited data

Results flagged for a closer look

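In groups of 4, a library was singled out when its gap to the nearest other library was a larger part of the group's range than Dixon's 95% critical value allows. Of 84 groups checked, over the named members and the summary measures, 13 were singled out, and 11 of the 13 were the shNT replicate 4 library. The members moved together and the summaries are built from them, so these flags are not independent and largely repeat the shift of that library. In kidney shNT replicate 4 the members took 3.987% of counted reads (2.627% to 2.715% in the other shNT libraries), and their median deviation from the tissue mean was 0.529 on the log2 scale (-0.08 to -0.03). In CPM, *Rplp0* was at 1249 there (834.7 to 846.2), *Rpsa* at 1136 (852 to 867.4), *Rplp1* at 749.8 (505.1 to 527.5), *Rpl27a* at 643.9 (447 to 476.4), *Rpl36al* at 144.2 (102.6 to 105.9), *Rpl3l* at 5.865 (1.118 to 1.752) and *Rpl32l* at 1.289 (0.847 to 0.920). In liver shNT replicate 4 the members took 2.61% of reads (1.543% to 1.584%), and *Rplp0* was at 828.8 CPM (390.5 to 443.8).

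The remaining pair lay in kidney shFOS replicate 3, where *Rplp1* was at 592.1 CPM (458.8 to 467.7 in the other shFOS libraries) and *Rpsa* at 924.9 CPM (718.2 to 729.5).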

How the results depend on the processing

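In kidney the number of members past an adjusted p of 0.05 was 0, but 8 with DESeq2 and 7 with DESeq2 without shNT replicate 4, and 0 to 3 when single libraries were left out, with 3 without shFOS replicate 1. The 12 at an unadjusted p under 0.05 became 6 with a length offset, 7 with a GC content and length offset, and 6 to 17 without single libraries (fewest without shFOS replicate 2, most without shFOS replicate 3). The kidney median of -0.20 ran from -0.31 to -0.03 without single libraries and was 0.085 with the GC content and length offset and shNT replicate 4 left out. In liver the 1 member at an unadjusted p became 0 with DESeq2 or with the GC content and length offset when shNT replicate 4 was left out, and 0 to 5 without single libraries (5 without shNT replicate 3), and the median ran from -0.31 to -0.04. For the difference between tissues in the change, adjusted calls were 0 to 1 without single libraries, and the 1 unadjusted became 2 with upper-quartile scaling, 2 without both shNT replicate 4 libraries and 1 to 4 without single libraries (4 without liver shNT replicate 4), with medians of -0.21 to 0.21. For liver against kidney shNT the 19 adjusted and 25 unadjusted calls became 11 and 14 with upper-quartile scaling, 8 and 12 with the 8 shNT libraries alone, 36 and 40 without both shNT replicate 4 libraries, and 10 to 44 and 12 to 53 without single libraries (fewest without liver, most without kidney shNT replicate 4), with medians of 0.08 to 0.45. Fits that combined the omission of shNT replicate 4 with another choice, or left it out in both tissues, were chosen after seeing the data. The share ratio of liver to kidney, 0.607, was 0.9959 without the 100 highest genes, which removed members in kidney only, and 0.52 to 0.681 without single libraries. The share ratio of shFOS over shNT ran from 0.767 to 0.906 in kidney and from 0.822 to 1.01 in liver.

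The replicate number as a block gave 0 adjusted and 7 unadjusted calls in kidney (5 with the GC content and length offset), 0 unadjusted in liver with or without that offset, 3 unadjusted for the difference between tissues, and 41 adjusted and 42 unadjusted for liver against kidney. The numbers were taken to pair libraries for the shNT groups of the tissues only: elsewhere not every same-numbered pair correlated above 0.1 (kidney and liver shFOS 0.03 to 0.16, shNT and shFOS within tissues -0.30 to 0.08). The blocked fits nonetheless also paired shFOS libraries across tissues, or shNT with shFOS within a tissue, by number.

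Directions turned for some members that did not pass. In kidney *Rplp0* (-0.11) was 0.000168 with the length offset, 0.0174 with GC content and length, 0.0326 with the block added, 0.0555 with DESeq2 without shNT replicate 4, 0.176 with the GC content and length offset without it, and -0.20 to 0.0579 without single libraries. *Rplp1* (-0.22) was 0.137 with GC content and length, 0.153 with the block added and 0.242 with that offset without shNT replicate 4. *Rpl22l1* (0.09) was -0.0948 with the GC offset and -0.0265 to 0.18 without single libraries. *Rps4l* (-0.01) was 0.000474 without a filter, 0.244 with GC content, 0.130 with length, 0.332 with both, 0.341 with the block added, 0.0920 with DESeq2 without shNT replicate 4 and 0.416 with the GC content and length offset without it, and -0.14 to 0.09 without single libraries. In liver *Rpsa* (-0.27) was 0.0734 with DESeq2 without shNT replicate 4 and 0.0644 with the GC content and length offset without it, and -0.41 to 0.0729 without single libraries. Between tissues *Rplp0* (0.13) was -0.0196 with upper-quartile scaling, -0.0207 without both shNT replicate 4 libraries and -0.19 to 0.31 without single libraries, *Rplp2* (0.20) ran from -0.0184 to 0.37 and *Rpl32l* (-0.24) from -0.45 to 0.0128. The cause of these changes was not tested. Depth limits *Rpl3l*, *Rpl34* and *Rpl32l*, which had few counts.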
